A study of Oreochromis niloticus with 6 samples.

Results

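The genes described here fold, admit and discard proteins of the endoplasmic reticulum (ER), or sense the load of unfolded protein in it, and they were chosen by symbol from a list of 40 genes of the secretory pathway. Of these symbols, 37 matched 50 of the 40538 rows of the expression table, since a symbol can be carried by several assembled loci and by the a and b copies of bony fish. The 3 symbols sec61b, edem3 and herpud1 matched no row of their own. RNA-seq had been made from gill arches of Oreochromis niloticus of the GIFT strain (genetically improved farmed tilapia), bred for aquaculture. There were 3 libraries labelled control, from fish kept at 5 mg/L dissolved oxygen, and 3 labelled hypoxia, from fish held near 1.0 mg/L after nitrogen had driven the oxygen down over 30 min. Gills of both groups were taken at 96 h, and the comparison asks how gill transcripts differ after that exposure. The labels give no age, sex or genotype beyond the strain, and they disagree on the layout, with 3 tanks a group and 15 fish a tank in the protocol and 4 replicates a group and 30 fish a tank in the design text.

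No label ties a library to a tank or a fish, or says whether fish were pooled, so p-values measure only the spread between these libraries, which may be technical. The libraries are numbered control 1 to 3 and hypoxia 1 to 3, as labelled. Levels are FPKM, mapped fragments normalized for transcript length and library size. The columns summed to 438405 to 483691 FPKM, and relative depth, read from the steps of the lowest values, ranged from 1 in hypoxia 1 to 1.21 in control 1 and control 3. Of genes known in mammals to be induced by low oxygen, egln3 and both loci named ddit4 went against the labels. These 3 rows are named because they did so, and other genes of this kind were not counted here. egln3, a prolyl hydroxylase of the oxygen-sensing pathway, was at 112.5, 50.4 and 46.4 FPKM in the libraries labelled control and at 3.25, 2.55 and 3.95 FPKM in those labelled hypoxia. Both ddit4 rows, of an inhibitor of growth signalling, were also lower in every library labelled hypoxia. Every direction below therefore rests on the labels, and both groups are named by their label.

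The ER is where secreted and membrane proteins enter the secretory pathway. They pass through the Sec61 channel as they are made, are bound by chaperones such as HSPA5 and calreticulin, and have their disulfide bonds formed by disulfide isomerases, while proteins that fail to fold are returned to the cytosol and degraded. When unfolded protein builds up, the sensors ern1, eif2ak3 and atf6 start the unfolded protein response, which slows translation and raises transcription of chaperones, isomerases and degradation genes. In the gill this machinery serves the mucous cells, the ion-transporting cells and the cells that lay down matrix.

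Chaperones, the oxidase ero1a and parts of the translocon were lower in the libraries labelled hypoxia. Of the 6 degradation rows and 5 sensor rows tested none was called by limma (each list had 1 lower at an unadjusted p under 0.05), and the difference between these lists and the chaperones was not tested. Of the 50 member rows, 45 reached a mean of 1 FPKM over the 6 libraries and were tested with limma on log2(FPKM + 1), with Benjamini-Hochberg adjustment over all 25111 rows tested. At an adjusted p under 0.05, 11 of the 45 were lower, against 3.30% of all rows tested, and 0 were higher, against 3.46% (6.77% in both directions together). At an unadjusted p under 0.05, 26 were lower and 0 higher by the same limma test. Of all 25111 rows tested, 2807 were lower and 3561 higher at that threshold. Groups did not overlap, with every library labelled hypoxia below every library labelled control, in 26 rows, against 14.0% of all rows tested. The reverse held in 2 rows, against 19.1%. Changes lay below 0 in 37 of the 45, against 45.7% of all rows. The median change of the tested member rows was -0.51 on the log2 scale, beside 0.05 over all rows tested. Since the members were picked with earlier results of these data in view, these counts describe the list. In bulk tissue, fewer cells of a type and less RNA per cell cannot be told apart.

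The 11 called rows differed by 1.60-fold to 8.56-fold between group means. The calls of calr, sdf2l1 and ero1a held with any 1 of the 6 libraries left out, at adjusted p of 0.0117 to 0.0457. The number of rows called was 10 without control 1, 8 without hypoxia 2, 4 without hypoxia 3, and 3 without control 2, control 3 or hypoxia 1. Calls fell over the whole table too. Rows called lower numbered 829 with all 6 libraries, and 595, 809, 172, 190, 260 and 154 in these fits, in that order. In such fits 1 member row was called higher, HSPA5 MSTRG.24160 without hypoxia 2 (adjusted p = 0.0173). All 11 calls held on the TPM scale, with median-of-ratios scaling, after quantile normalization and with the hemoglobin rows left out. With no filter on low values, dnajc3a and dnajc3b lost theirs. With the replicate number as a block, all 11 calls ended, at adjusted p of 0.0755 for ero1a to 0.159 for dnajc3a. That fit called 2 rows of the whole table lower and 0 higher.

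**Figure D1:**
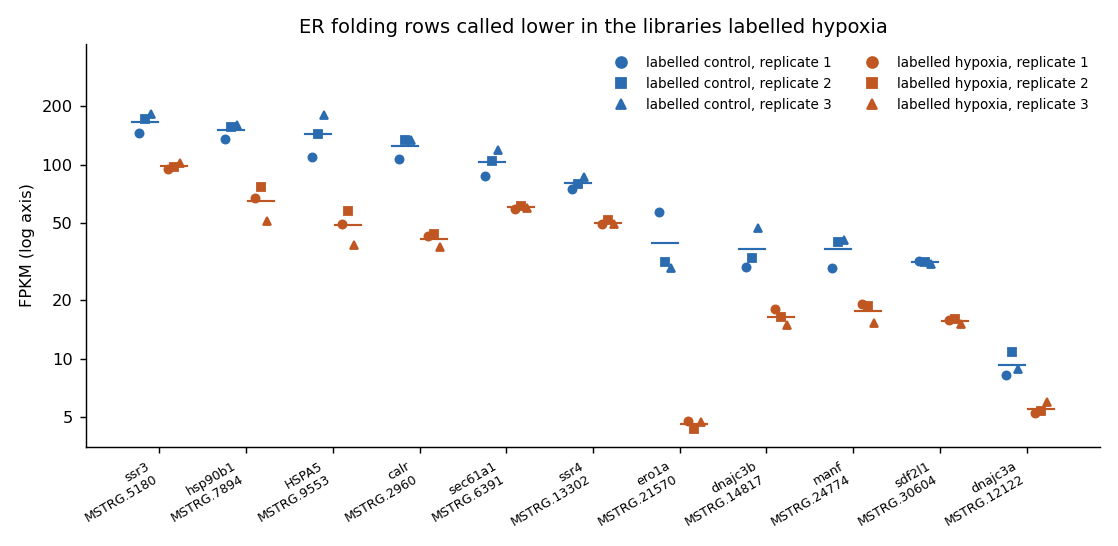
FPKM on a log axis for the 11 member rows called lower, ordered by their mean in the libraries labelled control. Each point is a library, with shape giving the replicate number, and each bar is the mean of 3 libraries; in all 11 rows the orange points of the libraries labelled hypoxia lie below the blue points of those labelled control, with the widest gap at ero1a.

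Among the chaperones, the general ER chaperones stood at the top of the levels and fell together. HSPA5, also called BiP, is the Hsp70 of the ER lumen, which binds nascent chains and holds the stress sensors inactive. Its most abundant row, MSTRG.9553, was at 109.8, 144 and 180.5 FPKM in the libraries labelled control and at 49.5, 58.0 and 38.6 FPKM in those labelled hypoxia. The groups lay well apart, with the lowest control far above the highest library labelled hypoxia (log2 change -1.54 ± 0.23 SE, adjusted p = 0.0216). The call was lost without control 2, control 3, hypoxia 1 or hypoxia 3 (adjusted p = 0.0557 to 0.0779).

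hsp90b1, or GRP94, is the Hsp90 of the ER and folds a limited set of client proteins such as integrins and toll-like receptors. It was at 136, 158 and 160.5 FPKM in the libraries labelled control and at 67.1, 76.9 and 51.1 FPKM in those labelled hypoxia (log2 change -1.22 ± 0.17 SE, adjusted p = 0.0191). Hypoxia 3 was the lowest library, and the call was lost without control 2, control 3 or hypoxia 1 (adjusted p = 0.0632 to 0.0689). The ratio of hsp90b1 to HSPA5 MSTRG.9553 within a library, which does not depend on how libraries are scaled, was 1.24, 1.10 and 0.889 in the libraries labelled control and 1.36, 1.33 and 1.32 in those labelled hypoxia. These ratios did not overlap, so HSPA5 MSTRG.9553 was lower relative to hsp90b1 in each library labelled hypoxia. The ratio concerns this HSPA5 row alone. With all 9 rows named HSPA5 summed, the log2 change was -1.24, close to the -1.22 of hsp90b1.

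calr encodes calreticulin, the soluble lectin chaperone that holds glycoproteins while they fold and buffers ER calcium. Its values were 107, 135 and 134 FPKM in the libraries labelled control against 43.1, 44.1 and 37.6 FPKM in those labelled hypoxia (log2 change -1.56 ± 0.13 SE, adjusted p = 0.00923). The libraries labelled hypoxia were close to each other, and calr was the chaperone with the smallest adjusted p together with sdf2l1. canx, the membrane-bound relative of calreticulin, was at 42.2, 37.1 and 43.5 FPKM and at 22.5, 17.6 and 7.68 FPKM in the same order. Its groups did not overlap, but hypoxia 3 lay far under the other 2 and the row did not pass (log2 change -1.42 ± 0.37 SE, adjusted p = 0.0764).

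Cofactors of HSPA5 were also among the called rows. sdf2l1, which keeps HSPA5 working with its J-domain partner dnajb11, was at 31.9, 31.6 and 30.9 FPKM in the libraries labelled control and at 15.8, 16.0 and 15.2 FPKM in those labelled hypoxia. The highest over lowest ratio was 1.03 among the controls and 1.05 among the libraries labelled hypoxia (log2 change -0.96 ± 0.09 SE, adjusted p = 0.00923). manf, a small secreted protein that binds HSPA5 and is released under ER stress in mammals, was at 29.3, 39.7 and 41.0 FPKM against 19.0, 18.7 and 15.3 FPKM (log2 change -1.003 ± 0.17 SE, adjusted p = 0.0273). Its call was lost without control 2, control 3, hypoxia 1 or hypoxia 3 (adjusted p = 0.0809 to 0.0947).

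Both copies of dnajc3, a J-domain cochaperone that also restrains kinases of the translation factor eIF2, fell. dnajc3b was the more abundant, at 29.9, 32.9 and 47.4 FPKM in the libraries labelled control and 18.1, 16.3 and 14.9 FPKM in those labelled hypoxia (log2 change -1.09 ± 0.19 SE, adjusted p = 0.0313). dnajc3a was at 8.24, 10.8 and 8.84 FPKM and 5.22, 5.35 and 5.998 FPKM in the same order (log2 change -0.65 ± 0.14 SE, adjusted p = 0.0463). Neither pair of groups overlapped, and the dnajc3a call did not survive the loss of any library (adjusted p = 0.0610 to 0.149), while dnajc3b kept its call only without control 1 (adjusted p = 0.0506 to 0.108 otherwise). With no filter on low values both calls ended (adjusted p = 0.0684 for dnajc3a and 0.0508 for dnajc3b). Copies of similar sequence can share reads, which makes the split between them uncertain. How alike dnajc3a and dnajc3b are was not examined here.

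Other chaperone rows were lower without passing, or had groups that overlapped. hyou1, the nucleotide exchange factor that resets HSPA5, was at 31.1, 36.2 and 29.6 FPKM against 23.4, 23.4 and 23.7 FPKM, groups that did not overlap (log2 change -0.44 ± 0.11 SE, adjusted p = 0.0692), and it passed with median-of-ratios scaling (adjusted p = 0.0417). creld2, an ER protein induced by ER stress in mammals, and the J-domain gene dnajb9b had groups apart too, with adjusted p of 0.134 and 0.128. dnajb11, dnajb9a and the glycoprotein folding sensor uggt1 had groups that overlapped (adjusted p = 0.324, 0.962 and 0.519). The change of dnajb9a was 0.02 and its sign turned with the scaling of the libraries. uggt2 stayed at 0.29 to 1.0 FPKM and was not tested. Over the whole chaperone group, 7 of 19 tested rows were called lower and 0 higher, against 3.30% and 3.46% of all rows tested. The median change was -0.96, and 3 of the 19 changes lay above 0.

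The symbol HSPA5 was carried by 9 rows that name no other gene, and none of the remaining 8 passed the test. Together they summed to 10.4 to 36.9 FPKM in the libraries labelled control and 11.1 to 35.9 FPKM in those labelled hypoxia, and 5 of them were tested without a call. MSTRG.24147 was at 7.37, 2.47 and 12.6 FPKM and 0.805, 2.09 and 1.16 FPKM, with groups that did not overlap (adjusted p = 0.112). MSTRG.24169 was at 6.79, 0.902 and 7.63 FPKM and 0.345, 1.45 and 1.15 FPKM, and MSTRG.32929 at 14.1, 6.29 and 14.5 FPKM and 2.24, 6.50 and 5.90 FPKM. In these 3 rows control 1 and control 3 were high and control 2 was low. A different set was high in hypoxia 1 and hypoxia 3 alone: MSTRG.24154 was at 4.74, 0.967 and 13.7 FPKM in the libraries labelled hypoxia and 0.203 to 1.34 FPKM in those labelled control. MSTRG.24160 was at 6.07, 0.0874 and 11.6 FPKM in the libraries labelled hypoxia and at most 0.101 FPKM in those labelled control, with control 1 listed at 0. MSTRG.24171 was listed at 0 in all 3 libraries labelled control and was at 2.33, 0.0485 and 2 FPKM in those labelled hypoxia, below the filter. MSTRG.24148 and MSTRG.24168 stayed under 2 FPKM in every library and were not tested.

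Of the HSPA5 rows, MSTRG.9553, MSTRG.32929, MSTRG.24147 and MSTRG.24169 hold a transcript with an Ensembl identifier and the ortholog entry K09490 in the table, and the other 5 hold assembled transcripts alone. Rows with neighbouring identifiers may be other Hsp70 loci that the table names HSPA5, so a sum over them need not be the level of that gene. With the 9 rows summed before the fit, HSPA5 was at 139.8, 154 and 217 FPKM in the libraries labelled control and 68.0, 69.2 and 74.6 FPKM in those labelled hypoxia (log2 change -1.24 ± 0.18 SE, adjusted p = 0.0194).

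**Figure D2:**
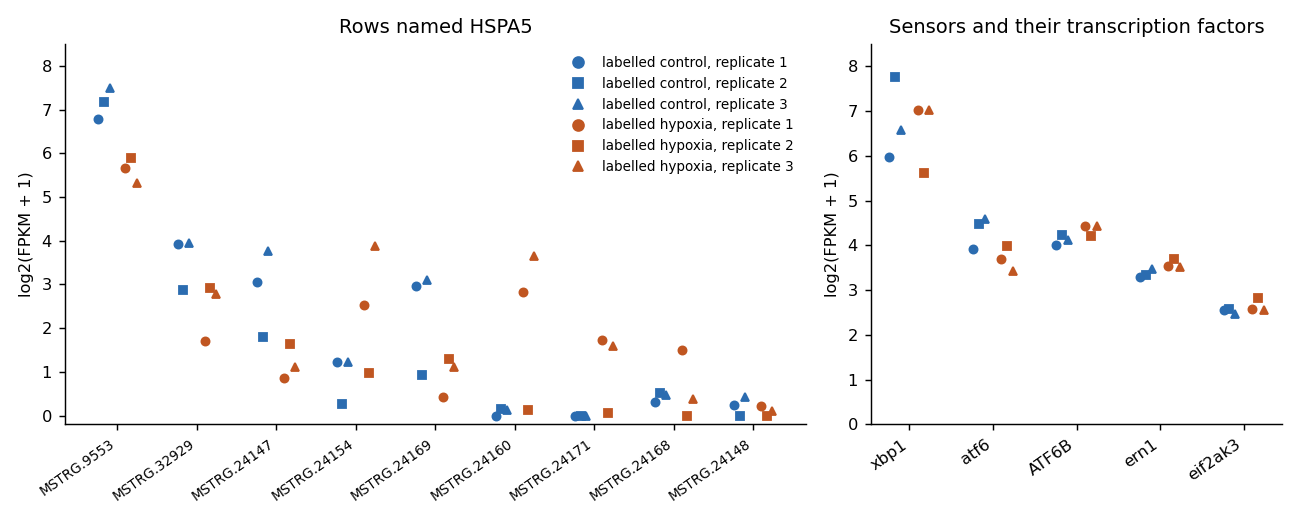
log2(FPKM + 1) in each of the 6 libraries for the 9 rows named HSPA5 (left) and for the 5 rows of sensors and their transcription factors (right), with shape giving the replicate number. MSTRG.9553 stands above the other HSPA5 rows and separates the groups, MSTRG.24154, MSTRG.24160 and MSTRG.24171 are high in hypoxia 1 and hypoxia 3 only, and xbp1 spreads widely within both groups.

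Among the genes of disulfide formation, ero1a fell and the isomerases were lower with groups apart but did not pass. ero1a encodes the oxidase that hands oxidizing equivalents from molecular oxygen to the isomerases, and in mammals it is induced by low oxygen. It was at 57.0, 31.6 and 29.4 FPKM in the libraries labelled control and at 4.74, 4.35 and 4.69 FPKM in those labelled hypoxia. The 8.56-fold difference of means was the widest among the called member rows (log2 change -2.79 ± 0.26 SE, adjusted p = 0.00978), and control 1 was the highest control, as it was for egln3. The row holds 1 assembled transcript with no Ensembl identifier. Its relative ero1b had an annotated row, MSTRG.25369, at 10.2, 10.3 and 10.6 FPKM and 7.57, 10.2 and 6.87 FPKM, which overlapped between groups (log2 change -0.32 ± 0.16 SE, adjusted p = 0.262). The ratio of ero1a to this ero1b row was 5.61, 3.08 and 2.77 in the libraries labelled control and 0.626, 0.427 and 0.683 in those labelled hypoxia. Another ero1b row, MSTRG.25368, was listed at 0 in control 3 and lay between 27.1 and 33.0 FPKM in the other 5 libraries, and an exact 0 in such a table can be a failed estimate.

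The isomerase pdia3, or ERp57, works with calreticulin and calnexin on glycoproteins and was the most abundant isomerase. It was at 201, 205 and 256 FPKM in the libraries labelled control and 154, 157 and 132 FPKM in those labelled hypoxia (log2 change -0.57 ± 0.14 SE, adjusted p = 0.0648). pdia6, an isomerase that also binds HSPA5 and restrains ern1 in mammals, was at 87.9, 104 and 131 FPKM and 56.2, 74.2 and 55.3 FPKM (log2 change -0.78 ± 0.19 SE, adjusted p = 0.0678). The classical isomerase p4hb, which is also a subunit of collagen prolyl hydroxylase, was at 51.5, 79.8 and 83.8 FPKM and 41.1, 37.9 and 26.3 FPKM (log2 change -1.003 ± 0.25 SE, adjusted p = 0.0714). None of these groups overlapped, and pdia4, a larger isomerase of the family, showed the same order with an adjusted p of 0.0898. With the filter raised to a mean of 5 FPKM, which left 11390 rows to adjust over, pdia3 and pdia6 passed (adjusted p = 0.0458 and 0.0481). The group thus had 1 of 7 tested rows called lower and 0 higher, against 3.30% and 3.46% of all rows tested. Its median change was -0.76.

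In the translocon, rows of the channel and of its associated complex fell, while the small subunit sec61g did not pass. sec61a1 forms the channel through which nascent chains cross the membrane. Its row MSTRG.6391 was at 87.7, 105 and 119 FPKM in the libraries labelled control and at 59.5, 61.5 and 59.9 FPKM in those labelled hypoxia (log2 change -0.77 ± 0.13 SE, adjusted p = 0.0285). The libraries labelled hypoxia lay close together, and the call was lost with any library but control 1 left out (adjusted p = 0.0547 to 0.104). A further row of the same symbol, MSTRG.4759, was at 24.5, 32.4 and 35.3 FPKM and 23.9, 25.6 and 23.5 FPKM, overlapping groups (adjusted p = 0.264). With both summed the symbol passed (adjusted p = 0.0427).

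sec61g, a single-pass subunit of the channel, was the most abundant of all member rows, at 387, 384 and 447 FPKM in the libraries labelled control and 400.2, 354 and 409.9 FPKM in those labelled hypoxia. Its groups overlapped (log2 change -0.06 ± 0.11 SE, adjusted p = 0.748, with a sign that turned after quantile normalization). Within a library, sec61g stood to sec61a1 MSTRG.6391 at 3.66 to 4.42 in the libraries labelled control. In those labelled hypoxia it stood at 5.76 to 6.84, ratios that did not overlap and do not depend on how libraries are scaled. Of the ratios not given in this text, calr to canx and pdia3 to p4hb overlapped between groups. Those of ssr4 to ssr2 and calr to hsp90b1 did not overlap. The pairs were chosen by hand, and no ratio was tested.

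The translocon-associated protein complex, made of the products of ssr1 to ssr4, helps certain signal sequences open the channel. ssr3 was at 147, 173 and 182 FPKM in the libraries labelled control and 95.4, 97.9 and 102 FPKM in those labelled hypoxia (log2 change -0.75 ± 0.11 SE, adjusted p = 0.0212). ssr4 was at 75.2, 79.7 and 86.8 FPKM and 49.6, 51.8 and 49.4 FPKM (log2 change -0.67 ± 0.09 SE, adjusted p = 0.0194). Both calls were lost without control 2, control 3, hypoxia 1 or hypoxia 3 (adjusted p = 0.0577 to 0.0856). ssr2 was at 101, 125 and 144 FPKM and 96.1, 97.3 and 91.9 FPKM, with groups apart but no call (adjusted p = 0.190). The ratio of ssr3 to ssr2 was 1.27 to 1.45 in the libraries labelled control and 0.992 to 1.12 in those labelled hypoxia. These ratios did not overlap, and whether the changes of ssr3 and ssr2 differ was not tested. The rows of ssr1, MSTRG.26722 and MSTRG.26723, had groups apart at adjusted p of 0.194 and 0.103. Of 8 tested translocon rows, 3 were called lower and 0 higher, against 3.30% and 3.46% of all rows tested. Their median change was -0.53.

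**Figure D3:**
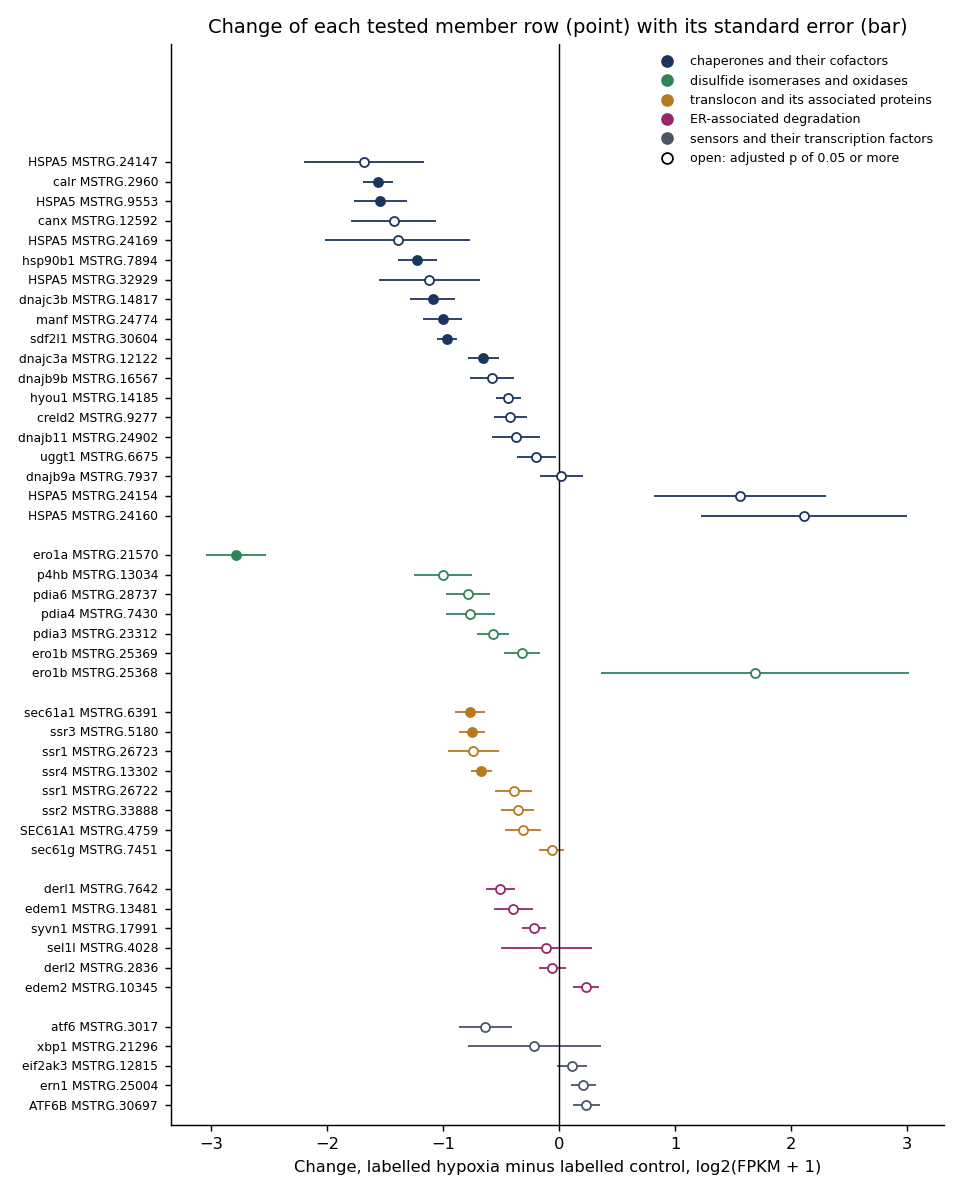
Change of each of the 45 tested member rows, as log2(FPKM + 1) of the libraries labelled hypoxia minus that of the libraries labelled control, with its standard error, ordered within the 5 functional groups. Filled points passed an adjusted p of 0.05; they lie in the chaperone, disulfide and translocon groups, from -2.79 for ero1a to -0.65 for dnajc3a.

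No member row of ER-associated degradation passed the test in the fit reported here. The 6 tested rows had 0 calls in the limma fit, against 3.30% of all rows tested called lower and 3.46% higher. In so few rows, 0 calls is near those shares. At an unadjusted p under 0.05, limma gave 1 lower and 0 higher. Changes lay below 0 in 5 of the 6, against 45.7% of all rows, and the median change was -0.16. Groups lay apart with 3 rows lower and 1 higher, against 14.0% and 19.1% of all rows tested. derl1, a membrane protein through which misfolded proteins leave the ER, was at 25.3, 28.9 and 32.2 FPKM in the libraries labelled control and 18.6, 20.4 and 20.7 FPKM in those labelled hypoxia. It was the row with the smallest p of the group, with groups that did not overlap (log2 change -0.51 ± 0.12 SE, adjusted p = 0.066), and it passed with the hemoglobin rows left out (adjusted p = 0.0494) and with a minimum mean of 5 FPKM (adjusted p = 0.044). Its relative derl2 was at 14.5, 12.7 and 12.8 FPKM and 11.7, 12.7 and 14.0 FPKM, overlapping, and derl3 stayed under 1 FPKM in all libraries and was not tested.

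The ubiquitin ligase syvn1, or HRD1, was at 15.3, 14.3 and 16.6 FPKM in the libraries labelled control and 13.9, 12.4 and 13.0 FPKM in those labelled hypoxia, apart by a narrow margin (adjusted p = 0.261). Its partner sel1l was at 13.5, 6.74 and 10.2 FPKM and 5.17, 14.7 and 9.34 FPKM, spread 2.01-fold among the controls and 2.85-fold among the libraries labelled hypoxia. The mannose-trimming lectins went different ways without passing: edem1 was at 3.92, 3.95 and 4.51 FPKM and 2.75, 3.74 and 2.34 FPKM, lower with groups apart (adjusted p = 0.213). edem2 was at 3.72, 4.05 and 4.32 FPKM and 4.96, 4.58 and 5.17 FPKM, one of the 2 tested member rows in which every library labelled hypoxia lay above every control (adjusted p = 0.268).

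No sensor passed either, with 0 of 5 rows called by limma, against 3.30% of all rows tested called lower and 3.46% higher. With so few rows, 0 calls is again near those shares. At an unadjusted p under 0.05, limma gave 1 lower and 0 higher. ern1, or IRE1, the kinase and nuclease that splices xbp1 RNA, was at 8.84, 9.16 and 10.0 FPKM in the libraries labelled control and 10.6, 11.9 and 10.4 FPKM in those labelled hypoxia (log2 change 0.21 ± 0.11 SE, adjusted p = 0.292). It was the other row with every library labelled hypoxia on top. eif2ak3, or PERK, which phosphorylates eIF2 and so lowers translation, was at 4.88, 4.97 and 4.55 FPKM and 4.93, 6.11 and 4.83 FPKM, overlapping (log2 change 0.11 ± 0.13 SE, adjusted p = 0.623).

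atf6 encodes a membrane-held transcription factor that is cut loose in the Golgi and switches on chaperone genes. It was at 14.2, 21.2 and 23.2 FPKM in the libraries labelled control and 11.8, 14.8 and 9.74 FPKM in those labelled hypoxia, groups that overlapped through control 1 and hypoxia 2 (log2 change -0.63 ± 0.23 SE, adjusted p = 0.156). Its relative ATF6B, which the matching rule takes in, was at 15.1, 17.7 and 16.4 FPKM and 20.5, 17.5 and 20.5 FPKM and also did not pass (log2 change 0.23 ± 0.12 SE, adjusted p = 0.269).

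xbp1, the transcription factor made active by splicing, was at 62.3, 215 and 94.3 FPKM in the libraries labelled control and 129.9, 48.3 and 129 FPKM in those labelled hypoxia. Control 2 was the highest library and hypoxia 2 the lowest, and the groups overlapped over most of their range (log2 change -0.21 ± 0.57 SE, adjusted p = 0.85). The change turned from -0.21 to 0.28 without control 2 and to 0.25 without hypoxia 2. Values per gene do not separate spliced from unspliced xbp1, and the activity of ern1, eif2ak3 and atf6 proteins is not measured by their transcripts.

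Summed over its 23 rows, the chaperone group was at 617, 704 and 795 FPKM in the libraries labelled control and at 335, 339 and 302 FPKM in those labelled hypoxia. That was 46.1% of the control mean, beside 60.9% for the disulfide group, 77.5% for the translocon, 84.1% for degradation and 86.3% for the sensors. The order of these percentages was not tested, and single rows weigh on it. sec61g, whose groups overlapped, made up 406 of the 1019 FPKM of the translocon mean in the libraries labelled control. The disulfide sum of control 3 includes the 0 of ero1b MSTRG.25368. The sums did not overlap between groups except for the sensors, whose most abundant row is xbp1. All 50 rows made up 0.481%, 0.591% and 0.628% of the summed FPKM in the libraries labelled control and 0.365%, 0.338% and 0.339% in those labelled hypoxia.

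**Figure D4:**
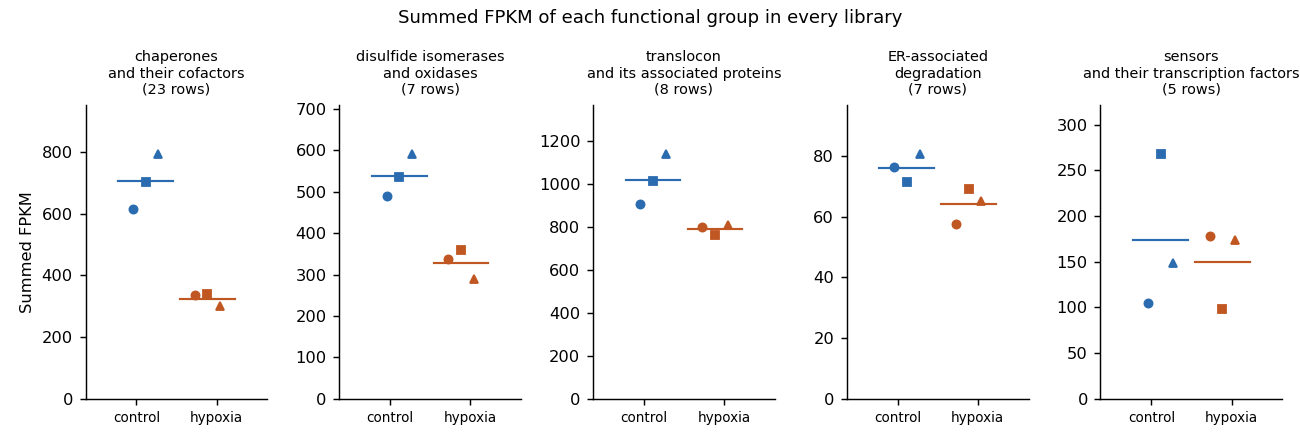
Summed FPKM of the rows of each functional group in every library, with axes that start at 0 and differ between panels; points are libraries, circles for replicate 1, squares for replicate 2 and triangles for replicate 3, blue for control and orange for hypoxia, and bars are means of 3 libraries. The chaperone sums lie at 617 to 795 FPKM against 302 to 339 FPKM, while the sums of the sensors overlap.

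The members shared an order within the controls. Control 1 was the lowest control in 30 of the 45 tested member rows (66.7%), against 40.1% of all rows tested, and control 3 was the highest in 30, against 32.5%. Control 1 also differed in hemoglobin: rows annotated with oxygen transport, myoglobin and cytoglobins aside, took 8.37% of the summed FPKM there, beside 0.671% and 0.767% in control 2 and control 3 and 5.22% to 12.3% in the libraries labelled hypoxia. With those rows left out of the total, the members' share was 0.525% in control 1, still under the 0.595% and 0.633% of control 2 and control 3, and 0.363% to 0.386% in the libraries labelled hypoxia. With control 1 left out 10 member rows were called lower, and with the hemoglobin rows left out 12 were called lower and 0 higher. What part the hemoglobin content has in the changes was tested no further.

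Markers of other cell types moved between the groups as well. For comparison, limma called 3.30% of all rows tested lower and 3.46% higher. At an unadjusted p under 0.05 it gave 2807 lower and 3561 higher of 25111. Of 13 tested fibroblast rows, such as col1a1 and lum, 8 rose and 1, pdgfra, fell, and their summed level was 257 to 318 FPKM in the libraries labelled control and 530.1 to 647 FPKM in those labelled hypoxia. Of 18 tested skeletal muscle rows 7 rose and 0 fell by limma (13 and 0 at an unadjusted p under 0.05), with sums of 429 to 572 and 849 to 1058 FPKM. Of 11 cartilage and bone rows 2 rose, with sums of 33.0 to 37.6 and 41.1 to 90.0 FPKM. Of 19 rows of gill epithelium and ionocytes 1 rose and none fell by the limma test (4 and 2 at an unadjusted p under 0.05). Sums were 2513 to 2823 FPKM in the libraries labelled control and 2910 to 3862 FPKM in those labelled hypoxia. Most of that difference lay in the epithelial keratins krt4 and krt5, which did not pass. krt4 was at 925.5 to 1093 and 1213 to 1977 FPKM (adjusted p = 0.112). krt5 was at 441 to 536 and 622.5 to 762 FPKM (adjusted p = 0.0605). The main row of epcam was at 189 to 441 FPKM over both groups. Groups lay apart with 3 rows of this list lower and 5 higher, against 14.0% and 19.1% of all rows tested. The 3 lower rows, none called, were epcam MSTRG.18717 (adjusted p = 0.0575), ATP6V1A MSTRG.11604 (adjusted p = 0.0589) and slc12a2 MSTRG.2776 (adjusted p = 0.293). The ionocyte chloride channel cftr was near 0, at no more than 1.17 FPKM in either of its rows. What part these shifts have in the lower ER rows was not tested.

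Of 5 tested mucous cell rows 2 rose, both of fer1l6, and 0 fell by limma (3 higher and 0 lower at an unadjusted p under 0.05). Their sums, over the untested rows too, were 90.5 to 97.2 FPKM in the libraries labelled control and 137 to 313 FPKM in those labelled hypoxia. That separation came from agr2, which did not pass (adjusted p = 0.0698), and without it the sums overlapped, at 28.8 to 37.0 and 33.5 to 34.7 FPKM. No row matched the mucin symbols muc2, muc5ac and muc5b. Of 7 rows of plasma cells and B cells 2 rose, irf4a and irf4b, and 0 fell (2 higher and 0 lower at an unadjusted p under 0.05). By contrast, prdm1a and an EBF1 row were lower with groups apart and no call (adjusted p = 0.512 and 0.519). Sums were 23.9 to 27.5 FPKM in the libraries labelled control and 32.3 to 38.5 FPKM in those labelled hypoxia. That separation came from irf4a (mean 9.91 against 15.8 FPKM) and irf4b (2.27 against 6.54 FPKM), and without them the sums overlapped. No row matched jchain or ighm. Of 9 macrophage and granulocyte rows csf1ra rose and a LECT2 row fell, and of 9 red blood cell rows 0 passed (1 higher at an unadjusted p under 0.05), with sums of 82.9 to 352 and 182 to 328 FPKM.

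Beyond the member list, 7 further lists of the same pathway gave 127 tested rows, of which 11 fell and 3 rose, with a median change of -0.14. The shares were 8.66% lower and 2.36% higher, against 3.30% and 3.46% of all rows tested. In the lists of other ER chaperones, other degradation genes and ER shape, 4.35% to 5.26% of rows were called lower, near the share of all rows. On the TPM scale the pathway split was 11 lower and 1 higher, and after quantile normalization 6 lower and 3 higher. Of all rows tested, 829 were lower and 870 higher, and on the TPM scale 941 and 593. Leaving out control 1 gave 7 pathway rows that fell and 1 that rose, control 2 gave 1 and 1, and control 3 gave 2 and 1. Leaving out hypoxia 1 gave 0 and 0 (30 and 11 at an unadjusted p under 0.05), hypoxia 2 gave 7 and 2, and hypoxia 3 gave 1 and 0 (25 and 9 at an unadjusted p).

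The oligosaccharyltransferase, which attaches N-glycans to chains emerging from the translocon, had 2 of 12 rows called lower and a median of -0.49. ddost was at 83.8, 98.6 and 119 FPKM in the libraries labelled control and 50.9, 60.0 and 42.7 FPKM in those labelled hypoxia (adjusted p = 0.0365). dad1 was at 51.8, 50.9 and 38.9 FPKM and 25.8, 30.1 and 28.0 FPKM (adjusted p = 0.0405). In the list of targeting and signal peptidase genes, the signal recognition particle proteins srp14 and srp72 fell and a subunit of the particle's receptor, srprb, rose. srprb was at 2.29, 3.19 and 2.94 FPKM in the libraries labelled control and 7.51, 7.06 and 7.59 FPKM in those labelled hypoxia (adjusted p = 0.0139). srp14 had an adjusted p of 0.0432 and srp72 MSTRG.7284 one just under the threshold. Another srp72 row, MSTRG.7282, overlapped between groups with a change of 0.42 (adjusted p = 0.353). The 16 rows of that list had a median of -0.25.

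Of 12 other rows of the isomerase family, 2 fell. erp44, which retains ero1a and unassembled subunits in the early secretory pathway, was at 26.2, 27.7 and 36.2 FPKM in the libraries labelled control and 15.9, 18.7 and 13.6 FPKM in those labelled hypoxia (adjusted p = 0.0429), and txndc12 fell too (adjusted p = 0.0466). agr2, an isomerase of mucus-producing cells, lay the opposite way, at 64.0, 60.2 and 61.7 FPKM and 159.5, 279 and 103 FPKM, with groups that did not overlap and no call (adjusted p = 0.0698). Of 19 other ER chaperone rows, cnpy2 fell from a mean of 8.97 to 5.06 FPKM (adjusted p = 0.0307) and the prolyl isomerase fkbp7 rose from 2.19 to 4.61 FPKM (adjusted p = 0.0437). Another fkbp7 row, MSTRG.28975, was higher with groups apart and no call (adjusted p = 0.284). agr2 is named here after its values were seen.

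Of 23 other degradation rows, vimp fell, a selenoprotein of the retrotranslocation complex that is itself induced by ER stress in mammals. It was at 89.6, 113 and 122 FPKM in the libraries labelled control and 49.96, 53.9 and 44.0 FPKM in those labelled hypoxia (log2 change -1.11 ± 0.15 SE, adjusted p = 0.0173). Of 24 rows of signalling below the sensors, chac1 and wfs1b fell. The chac1 row that fell, MSTRG.4039, carries the ortholog entry K00021, which was not checked against its symbol. Its identity as chac1 therefore rests on the symbol alone. The symbol stands for an enzyme that degrades glutathione and is switched on through atf4 in mammals. MSTRG.4039 was at 205, 376 and 334 FPKM and 90.7, 57.1 and 87.0 FPKM (log2 change -1.93 ± 0.29 SE, adjusted p = 0.0214). A further CHAC1 row, MSTRG.12718, was at 18.8, 7.53 and 25.5 FPKM and 7.84, 6.81 and 3.27 FPKM, with overlapping groups and no call (adjusted p = 0.165). wfs1b, a copy of the ER membrane protein wolframin, was at 5.09, 3.94 and 5.17 FPKM and 2.01, 1.995 and 2.22 FPKM (adjusted p = 0.0250).

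The transcription factors between eif2ak3 and chac1, named here after their values were seen, did not pass. atf4a was at 140.4, 159 and 162 FPKM in the libraries labelled control and 126, 117 and 121 FPKM in those labelled hypoxia, with groups apart (adjusted p = 0.0915). ddit3, or CHOP, which promotes cell death under prolonged ER stress, was at 17.9, 23.5 and 21.8 FPKM and 26.1, 21.5 and 24.4 FPKM, overlapping (adjusted p = 0.451). Among 21 rows of ER shape and calcium store, the membrane-curving reep5 MSTRG.2741 fell, from 54.3, 63.5 and 63.7 FPKM to 29.9, 29.8 and 30.6 FPKM (adjusted p = 0.0116). Another reep5 row, MSTRG.2742, was lower with groups apart and no call (adjusted p = 0.0743). The calcium pump atp2a3 MSTRG.28354 rose, from 18.3, 20.1 and 24.1 FPKM to 35.3, 31.8 and 33.9 FPKM (adjusted p = 0.0364). The atp2a3 row with an Ensembl transcript, MSTRG.28357, overlapped between groups (adjusted p = 0.548). Of the further lists, only that of ER shape and calcium store had a median above 0, at 0.07, close to that of all rows.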

How the data were processed

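Trizol-extracted gill RNA went into standard Illumina libraries, per the labels' protocols. The deposited FPKM values were made by the authors, and the submitters' processing notes name HISAT and StringTie; genome build, annotation and tool versions: not given in the sources used here. Identifiers starting with MSTRG (37062 rows) are StringTie loci, which can merge neighbours or split a gene; 417 rows name more than 1 gene and matched no list. FPKM is not a count, so log2(FPKM + 1) was tested, for rows whose mean reached 1 FPKM, with limma 3.58.1 in R 4.3.3 (lmFit, eBayes with a mean-variance trend, two-sided, no covariates, Benjamini-Hochberg at 0.05), which gave every adjusted p. The ± after a log2 change is its standard error. Absolute depth is unknown, so precision is the spread over 3 libraries. Members, lists and the rule for named genes (all called member rows, the most abundant rows of each functional group, the sensors, and the called rows of further lists) were chosen with earlier results of these data known. Rows match a symbol in any case, with a or b added. Alternatives were other scalings, pseudocount, filters, robust variances, summed rows, a replicate block and each library left out; leaving out the hemoglobin rows was added after seeing the data. The fit was tested on simulated data. No sequences or positions were used here.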

Additional observations from a re-analysis of the deposited data

How the results depend on the processing

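The number of member rows called lower stayed at 9 to 15 under the other scalings, pseudocount, filters, robust variances, summed rows and the omission of the hemoglobin rows, and ranged from 3 to 10 with 1 library left out, where 0 to 1 were called higher. The 15 came with a minimum mean of 5 FPKM, out of 38 member rows tested. At that filter the whole table had 888 of 11390 rows lower, a larger share than in the main fit. Called rows over the whole table numbered 539 lower and 519 higher with no filter, and 154 to 809 lower and 106 to 818 higher with 1 library left out. In the further pathway lists, 6 rows were lower after quantile normalization and 7 with no filter, 1 was higher on the TPM scale, and 0 to 7 were lower and 0 to 2 higher with 1 library left out. Fewer libraries or more rows to adjust over enter these fits, and the cause of the quantile and TPM differences was not tested. None of the 11 called rows changed sign in its alternatives. Signs turned in 5 rows that were not called. The change of dnajb9a was -0.061 on the TPM scale, -0.029 with median-of-ratios scaling, -0.064 after quantile normalization and -0.0052 without the hemoglobin rows, and ran from -0.073 to 0.20 with 1 library left out. That of sec61g was 0.060 after quantile normalization and ran from -0.11 to 0.0056 with 1 library left out. The same ranges were -0.12 to 0.00072 for derl2, -0.44 to 0.24 for sel1l and -0.61 to 0.28 for xbp1. Deviations of same-numbered libraries from their group means correlated at -0.06, -0.04 and -0.12. These values gave no sign of pairing by replicate number but cannot exclude it, since no label ties a library to a tank. With the replicate number as a block, limma called 0 member rows lower and 0 higher (22 and 1 at an unadjusted p under 0.05), 2 rows of the table lower and 0 higher (2324 and 2786), and 0 pathway rows either way (24 and 10).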

Other observations

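Of the members without a row of their own, edem3 and herpud1 appeared in rows that name more than 1 gene, and sec61b in none. The row naming edem3 with zgc:92140 was at 12.3, 12.6 and 13.5 FPKM in the libraries labelled control and 13.4, 16.0 and 12.2 FPKM in those labelled hypoxia. The row naming herpud1, an ER membrane protein of the degradation pathway, with the ion transporter slc12a3 was at 11.3, 5.18 and 15.8 FPKM and at 9.19, 9.59 and 3.13 FPKM. Neither separated the groups. MSTRG.24158 names HSPA5 with another gene and is not among the 9 HSPA5 rows. It was at 2.90, 0.677 and 1.40 FPKM in the libraries labelled control and 0.674, 1.62 and 0.218 FPKM in those labelled hypoxia, overlapping.

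Within the groups, sel1l and xbp1 ran opposite to each other. The controls ordered from high to low as replicates 2, 3 and 1 for xbp1 and as replicates 1, 3 and 2 for sel1l. In the libraries labelled hypoxia the single low xbp1 value, 48.3 FPKM in replicate 2, came with the highest sel1l value, 14.7 FPKM. This was noticed after the values were seen and was not tested.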
